A study of Mus musculus with 88 samples.

Results

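The imprinted Kcnq1 cluster lies on distal chromosome 7 of the mouse. Its 9 genes described here, of 21942 loci in the deposited table, were chosen by name: Cdkn1c, Phlda2, Slc22a18, Ascl2, Osbpl5, Tssc4, Cd81, Tnfrsf23 and Kcnq1. They were selected on their levels by cross and culture medium in these same libraries, so the members' differences between media, cultures and crosses are given below as a description, with standard errors and no p-value. Sex chromosomes were not a criterion of that choice, but a sex difference of Cdkn1c was already known when it was made. Differences between XX and XY lines, alone and by medium, were tested. For Cdkn1c, p-values that rest on the lines of that known difference are not independent of the choice. All 9 names matched 1 locus each.

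In textbook accounts the cluster is expressed mainly from the maternal chromosome. A CpG-rich control region inside Kcnq1 is methylated in the egg. On the paternal chromosome, where it is unmethylated, it starts the long antisense RNA Kcnq1ot1, and the genes around it are silenced, with Polycomb and histone methyltransferase complexes taking part. Silencing of Cdkn1c, Phlda2, Slc22a18 and Kcnq1 is known from embryo and placenta, and that of the outer genes, such as Ascl2, Osbpl5, Tssc4, Cd81 and Tnfrsf23, mainly from the placenta. RPKM (reads per kilobase of transcript, scaled to the mapped reads of a library) adds both parental alleles, so imprinting itself was not measured here. Kcnq1ot1 was not analysed here.

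The series holds 88 samples, of which 26 RNA-seq libraries were used and 62 bisulfite samples were not analysed here. In the B6 cross (F1 of 129X1/SvJ and C57BL6), embryonic stem cell (ESC) lines at passage 3 gave 16 libraries, with 2 XX and 2 XY lines in each of 4 media. The 2i medium blocks the kinases MEK and GSK3, t2i contains less of the MEK inhibitor, a2i replaces it with an inhibitor of Src, and the last medium is serum supplemented with LIF. In the MSM cross (F1 of 129X1/SvJ and MSM/Ms), 10 libraries covered XX lines 15 and 2 and XY lines 20 and 23 in 2i, XX line 8 and XY line 12 in serum (labelled S), 1 culture of line 15 moved from 2i to serum and passaged 14 times more (2i-S), 2 libraries of mouse embryonic fibroblasts at passage 1 (MEF) and 1 library of MEFs derived from line 15 (2i MEF). Line 15 thus supplied 3 libraries, passage cannot be told apart from medium history, and the MEFs carried no sex because their labels conflict. Lines were taken as replicates; p-values measure the spread between lines.

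RPKM summed to 624274 to 934309 per library, with 11234 to 12558 loci at or above 1 RPKM, and no pair of libraries was identical. No read counts entered this work, and the absolute depth is unknown. All 8 ESC marker genes reached 1 RPKM in every ESC library, against 1 of 8 in each MEF and 2i MEF library. The 16 fibroblast markers summed to 1340 to 2076 RPKM in the 4 B6 serum libraries, to 6.69 to 17.6 in the other 12 B6 libraries and to 77.6 to 232 in the S libraries. Set against the MEFs, this gave an estimated fibroblast share of 8.34% to 16.8% in B6 serum, 0.216% to 1.12% in S and at most 0.0171% in the B6 cultures in 2i, t2i and a2i. In the 4 MSM lines in 2i the markers summed to 17.96 to 116 RPKM; the highest was XY line 20, with an estimated share of 0.314%.

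The genes lie, on mm10, between Ascl2 at chr7:142966828-142969264 and Osbpl5 at chr7:143688761-143756985. In between, in order, come Cd81 (chr7:143052738-143067934), Tssc4 (chr7:143069248-143071093), Kcnq1 (chr7:143106361-143427042), Cdkn1c (chr7:143458338-143461050), Slc22a18 (chr7:143473735-143499334), Phlda2 (chr7:143501544-143503150) and Tnfrsf23 (chr7:143665808-143685872). Tssc4 lies inside the span that the table gives Trpm5 (chr7:143069152-143094642). Tnfrsf23 has close relatives beside it, Tnfrsf22 and Tnfrsf26. The libraries were strand-specific, but the sources used here do not state how reads were counted, so those shared in these places cannot be assigned with certainty.

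The 250 bases before the start site are shown for the 3 genes with a RefSeq promoter window whose levels differed most between XX and XY lines in 2i, and for the silencing RNA Kcnq1ot1. They run 5′ to 3′ on the gene's strand (RefSeq, GRCm38.p6, the assembly that mm10 denotes), and capitals mark CpG, the dinucleotide at which mammalian DNA is methylated. The windows are chr7:143502525-143502774 (minus strand) for Phlda2, chr7:143473539-143473788 (plus) for Slc22a18, chr7:142969265-142969514 (minus) for Ascl2 and chr7:143296548-143296797 (minus) for Kcnq1ot1.
Phlda2: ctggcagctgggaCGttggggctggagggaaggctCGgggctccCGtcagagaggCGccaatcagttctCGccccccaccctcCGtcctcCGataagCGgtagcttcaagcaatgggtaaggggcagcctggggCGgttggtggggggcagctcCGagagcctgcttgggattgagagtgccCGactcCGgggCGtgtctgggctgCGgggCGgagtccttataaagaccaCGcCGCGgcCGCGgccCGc
Slc22a18: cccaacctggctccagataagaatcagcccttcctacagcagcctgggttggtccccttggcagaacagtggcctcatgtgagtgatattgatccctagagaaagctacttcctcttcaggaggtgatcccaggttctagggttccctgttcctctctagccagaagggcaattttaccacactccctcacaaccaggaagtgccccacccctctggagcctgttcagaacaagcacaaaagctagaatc
Ascl2: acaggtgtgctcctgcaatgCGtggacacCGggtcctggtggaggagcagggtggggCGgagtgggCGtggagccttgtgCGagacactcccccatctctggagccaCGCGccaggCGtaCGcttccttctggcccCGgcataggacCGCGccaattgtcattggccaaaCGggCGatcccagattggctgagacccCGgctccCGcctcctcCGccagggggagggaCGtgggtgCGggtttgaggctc
Kcnq1ot1: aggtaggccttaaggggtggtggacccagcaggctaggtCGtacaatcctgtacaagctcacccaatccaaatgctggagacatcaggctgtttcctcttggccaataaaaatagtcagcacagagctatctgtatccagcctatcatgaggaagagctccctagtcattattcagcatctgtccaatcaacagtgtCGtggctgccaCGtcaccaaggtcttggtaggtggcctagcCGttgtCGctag
Phlda2 had 21 CpG in this window, Ascl2 19, Kcnq1ot1 5 and Slc22a18 0, against a median of 6 over all 32851 RefSeq windows of this length. Tssc4 had 17, Cd81 16 and Tnfrsf23 8, and the 3 Osbpl5 start sites had 14, 1 and 18. RefSeq windows were matched for 7 of the 9 members, not for Cdkn1c and Kcnq1. The GC box GGGCGG, read on both strands, occurred 2 times at Phlda2, 1 time at Ascl2 and 0 times at Slc22a18 and Kcnq1ot1, and 32.7% of all windows hold it. The hexamer TGCCGC, the core bound by the imprint-keeping factor Zfp57 when methylated, occurred in none of these 4 windows and in 8.68% of all windows. These matches describe letters only: Phlda2 and Ascl2 have CpG-rich starts and the Slc22a18 window has no CpG, although the 3 genes differed in the same direction between XX and XY lines in 2i.

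Cdkn1c encodes p57Kip2, an inhibitor of cyclin-dependent kinases. In the B6 cross it read 0.912 and 0.479 RPKM in the XX lines in 2i and 3.18 and 4.34 in the XY lines. In t2i it read 7.97 and 8.63 RPKM (XX) and 4.80 and 6.22 (XY), and in a2i 6.87 and 4.68 (XX) and 5.90 and 4.70 (XY). In serum it read 12.9 and 14.8 RPKM (XX) and 23.3 and 17.99 (XY). The XX lines in 2i were thus the lowest group and the serum lines the highest, and XX and XY lines overlapped in a2i only.

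Phlda2 encodes a small pleckstrin homology protein that restrains placental growth. It read 7.62 and 6.33 RPKM in XX lines in 2i, 28.7 and 22.4 in XY lines in 2i, 63.6 and 66.4 (XX) and 51.5 and 64.8 (XY) in t2i, and 80.2 and 49.1 (XX) and 79.0 and 90.5 (XY) in a2i. In serum it read 55.3 and 124 RPKM in the XX lines and 210 and 219 in the XY lines. Every line outside 2i was above every line in 2i, and the 2 XX lines in serum lay far apart.

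Slc22a18 encodes a membrane transporter of the organic cation family. It read 0.538 and 0.370 RPKM in XX lines in 2i against 8.04 and 6.57 in XY lines, 4.30 and 3.99 (XX) against 9.53 and 10.9 (XY) in t2i, and 6.82 and 4.57 (XX) against 8.66 and 11.0 (XY) in a2i. In serum XX lines (3.25 and 4.41 RPKM) and XY lines (3.60 and 4.06) overlapped. XX lines were below XY lines in the 3 inhibitor media, and the XY lines were lower in serum than in any of them.

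Ascl2 encodes a basic helix-loop-helix factor needed by trophoblast, the outer lineage of the placenta. It read 1.43 and 1.44 RPKM in XX lines in 2i against 7.74 and 5.11 in XY lines. In t2i it read 5.12 and 4.24 RPKM (XX) and 3.18 and 3.14 (XY), in a2i 3.20 and 4.52 (XX) and 3.76 and 5.96 (XY), and in serum 3.20 and 3.51 (XX) and 1.89 and 1.84 (XY). The order of the sexes was thus turned round in t2i and serum relative to 2i.

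Osbpl5, an oxysterol-binding protein, and Tnfrsf23, a decoy receptor of the TNF family, stood apart in serum. Osbpl5 read 6.67 to 8.03 RPKM in the 4 serum lines and 0.161 to 1.56 in the other 12 B6 lines. Tnfrsf23 read 3.57 to 7.19 RPKM in serum and at most 0.206 elsewhere in the B6 cross, so that it passed the filter on low values in that fit only through the serum lines. The tetraspanin Cd81 (224 to 373 RPKM) and Tssc4, which takes part in assembly of the U5 splicing particle (25.9 to 38.4 RPKM), were expressed in all 16 B6 libraries. Kcnq1, a voltage-gated potassium channel, read at most 0.197 RPKM in any of the 26 libraries and passed the filter in no fit.

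**Figure D1:**
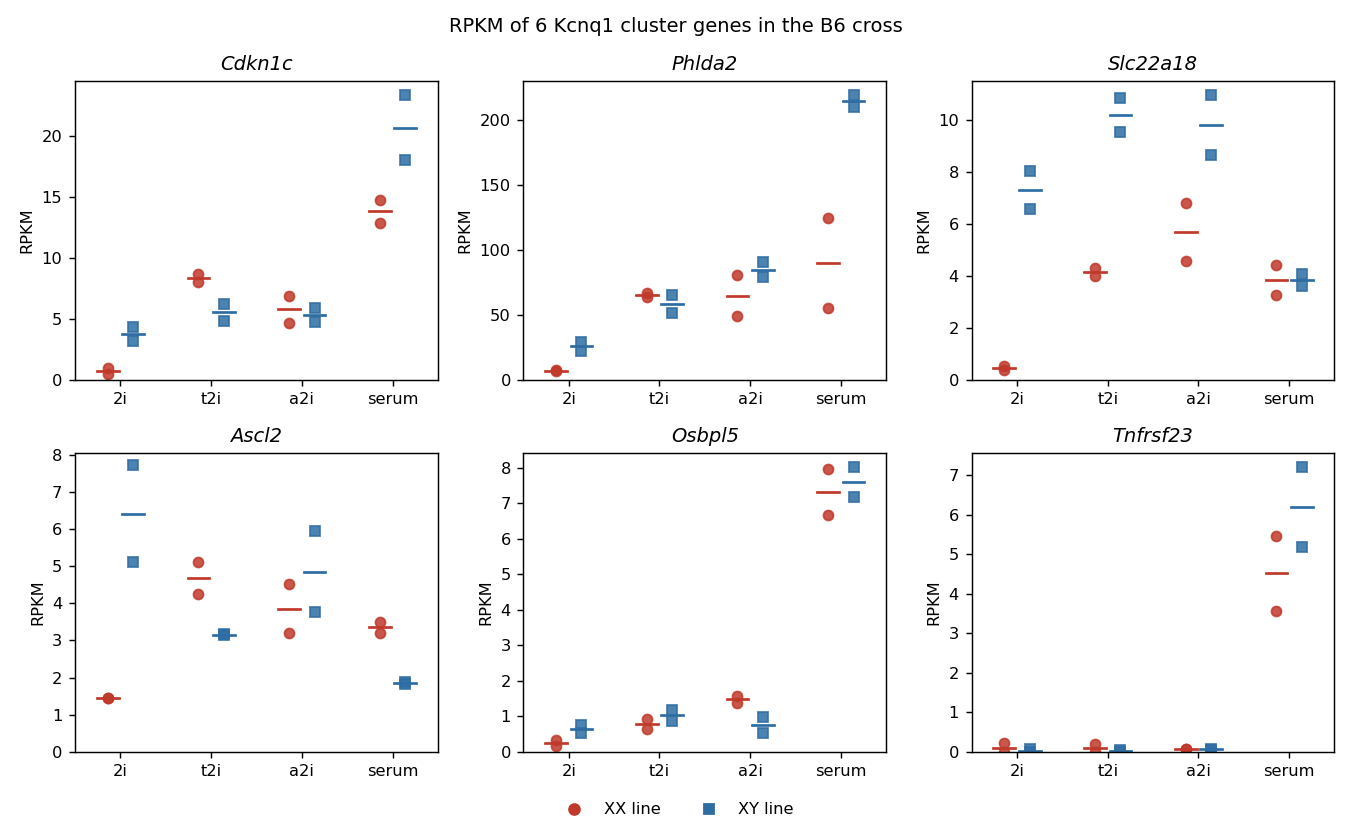
RPKM (y axis, linear, from 0, a separate scale per gene) of 6 cluster genes in the 16 B6-cross libraries by medium (x axis); circles are XX lines, squares XY lines and short bars the mean of 2 lines. The XX lines in 2i are the lowest group for Cdkn1c, Phlda2, Slc22a18 and Ascl2, while Osbpl5 and Tnfrsf23 stand high in serum alone.

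Tests were made on log2(RPKM + 1) with limma and Benjamini-Hochberg adjustment over all genes of a fit, and a gene was called at an adjusted p under 0.05. With that pseudocount, changes of genes at about 1 RPKM or less are understated. Of the 9 members, 8 reached 1 RPKM in 2 or more libraries, the filter on low values, in the B6 and in the MSM fit.

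In 2i, 4 of the 8 tested members were lower in XX than in XY lines and none was higher; over all 13150 genes tested 25.1% were called. Slc22a18 fell by 2.51 (SE 0.20, limma adjusted p = 4e-06), Phlda2 by 1.73 (SE 0.30, adjusted p = 0.0013), Ascl2 by 1.58 (SE 0.22, adjusted p = 0.00022) and Cdkn1c by 1.49 (SE 0.22, adjusted p = 0.00035) in XX relative to XY lines, n = 2 and 2. In mean RPKM the XY lines were 16.1-fold higher for Slc22a18, 5.40-fold for Cdkn1c, 4.46-fold for Ascl2 and 3.66-fold for Phlda2. The XX means of Slc22a18 (0.454 RPKM) and Cdkn1c (0.695 RPKM) in 2i are below 1 RPKM. Ratios over these means, here and below, are therefore uncertain in size. The members' median difference was -0.94, against -0.03 over all genes tested. Cd81 (0.06, SE 0.12) and Tssc4 (0.12, SE 0.12) did not pass. Osbpl5 (-0.39, SE 0.18) and Tnfrsf23 (0.10, SE 0.19) read at most 0.757 and 0.206 RPKM in these lines. That they did not pass says little so near the floor, though both count among the 8 and in the median. All 4 calls held in each of 22 alternatives, 16 of them with 1 line left out. The sex difference of Cdkn1c in 2i was already known when the genes were chosen, so its p-value is not independent of the choice.

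In t2i only Slc22a18 was called, lower in XX lines (-1.12, SE 0.20, limma adjusted p = 0.0018), where 18.9% of all genes tested were called. Cdkn1c (0.52, SE 0.22), Ascl2 (0.45, SE 0.22) and Phlda2 (0.17, SE 0.30) had positive differences that did not pass the test. In a2i, with 28.3% of all genes called, Slc22a18 was lower in XX lines (-0.71, SE 0.20, limma adjusted p = 0.019) and Osbpl5 higher (0.51, SE 0.18, adjusted p = 0.049). The Osbpl5 call was lost in 19 of 22 alternatives, and the Slc22a18 call was lost without XX line 18 or without XY line 3. In serum, with 7.29% of all genes called, only Phlda2 was called, lower in XX lines (-1.36, SE 0.30, limma adjusted p = 0.017). That call was lost without XX line 17, XY line 10 or XY line 16 (adjusted p up to 0.14 over all alternatives).

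**Figure D2:**
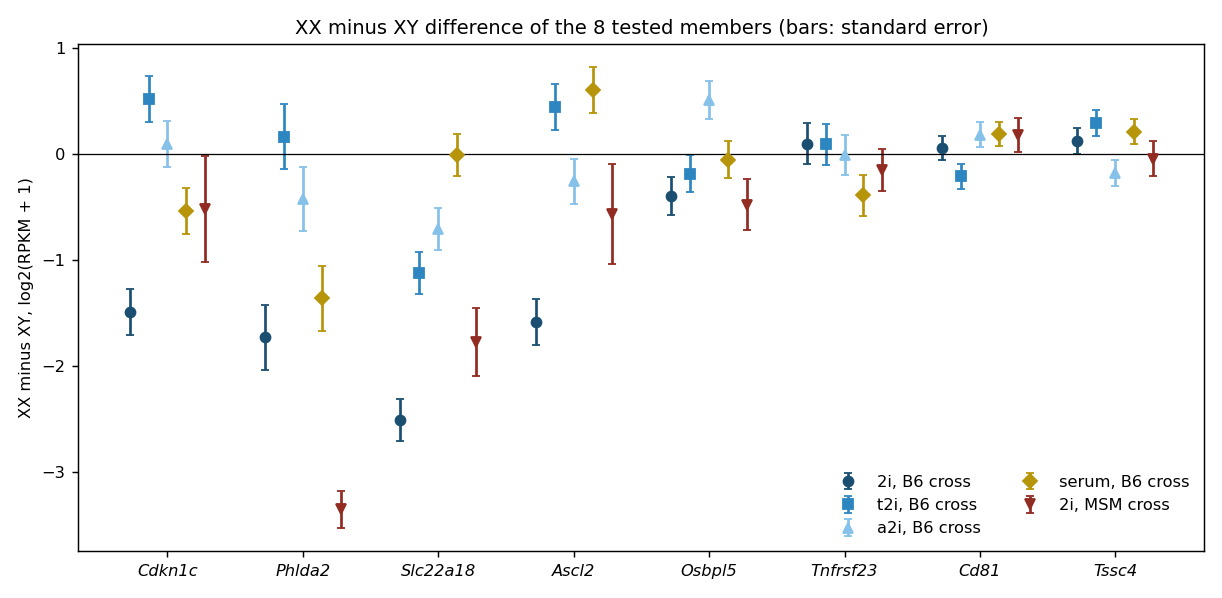
XX minus XY difference on the log2(RPKM + 1) scale (y axis) for the 8 tested members (x axis) in the 4 media of the B6 cross and in 2i of the MSM cross; points are fitted differences and bars their standard errors. In 2i of the B6 cross Cdkn1c, Phlda2, Slc22a18 and Ascl2 lie between -1.49 and -2.51, and Cd81 and Tssc4 lie between -0.21 and 0.29 in each series.

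In t2i and a2i, the 4 members that were low in XX lines in 2i differed from 2i by a larger ratio in XX than in XY lines. These 4 were picked by that low XX level, which is the denominator of each XX ratio. The larger XX ratios thus in part restate the sex difference in 2i. Relative to 2i, mean RPKM of Cdkn1c was 11.9-fold higher in t2i in XX lines and 1.47-fold in XY lines, Phlda2 9.32-fold and 2.28-fold, and Slc22a18 9.13-fold and 1.40-fold. Ascl2 was 3.25-fold higher in t2i in XX lines and stood at 0.492 times its 2i level in XY lines. In a2i the corresponding ratios in XX and XY lines were 8.31 and 1.41 for Cdkn1c, 9.27 and 3.32 for Phlda2, 12.5 and 1.35 for Slc22a18, and 2.68 and 0.756 for Ascl2.

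Whether the medium effect differed between the sexes was tested directly. For t2i minus 2i, the effect was larger in XX lines for Ascl2 by 2.03 (SE 0.31, limma adjusted p = 0.0082), for Cdkn1c by 2.01 (SE 0.31, adjusted p = 0.0084) and for Slc22a18 by 1.39 (SE 0.28, adjusted p = 0.034), while Phlda2 did not pass (1.895, SE 0.43, adjusted p = 0.056). These 3 of 8 members stood beside 1.26% of all genes called. The Slc22a18 call was lost when any 1 of the 8 lines in 2i or t2i was left out, and the Cdkn1c call without t2i XY line 2 (adjusted p = 0.051).

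For a2i minus 2i, the XX effect exceeded the XY effect for Slc22a18 by 1.80 (SE 0.28, limma adjusted p = 0.006), for Cdkn1c by 1.58 (SE 0.31, adjusted p = 0.016) and for Ascl2 by 1.33 (SE 0.31, adjusted p = 0.031), with 4.93% of all genes called. Phlda2 (1.30, SE 0.43) and Osbpl5 (0.90, SE 0.25) did not pass. The Cdkn1c call was lost without 2i XX line 4 or a2i XY line 3. The Ascl2 call was lost without 2i XX line 3, 2i XX line 4, a2i XX line 18, 2i XY line 2 or a2i XY line 1. Both comparisons, and that with serum, use the same 4 lines in 2i. The sex difference of Cdkn1c in those lines was known when the genes were chosen. Its p-values in these comparisons are therefore not independent of the choice.

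For 2i minus serum, the effect differed between the sexes for Slc22a18 (XX minus XY effect -2.501, SE 0.28, limma adjusted p = 0.00033) and Ascl2 (-2.19, SE 0.31, adjusted p = 0.0014), with 8.17% of all genes called; both held in 22 of 22 alternatives. Slc22a18 was 8.44-fold higher in serum than in 2i in XX lines and stood at 0.525 times its 2i level in XY lines. Ascl2 likewise was 2.33-fold higher in XX lines and at 0.290 times in XY lines. Cdkn1c (-0.95, SE 0.31, adjusted p = 0.078) and Phlda2 (-0.37, SE 0.43, adjusted p = 0.65) did not pass this test; both were higher in serum than in 2i in XX and in XY lines.

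**Figure D3:**
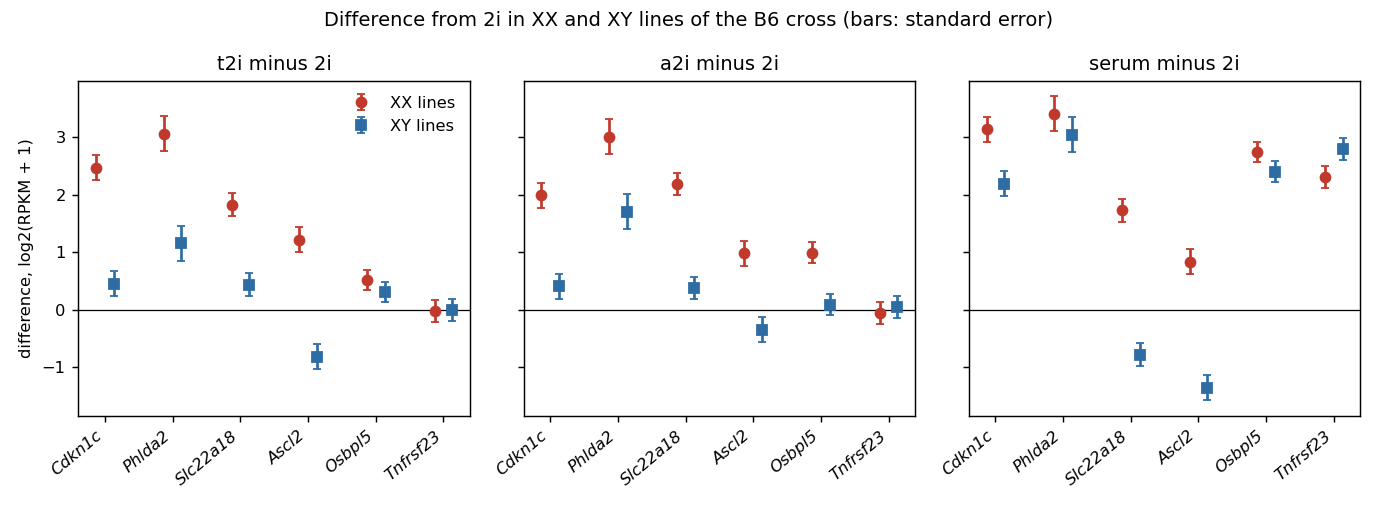
Differences of t2i, a2i and serum from 2i on the log2(RPKM + 1) scale (y axis) for 6 members (x axis) in XX lines (circles) and XY lines (squares) of the B6 cross, with standard errors. Slc22a18 and Ascl2 lie above 0 in XX lines and below 0 in XY lines in the serum panel.

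Averaged over the sexes, Phlda2 (2i minus serum -3.22, SE 0.21), Cdkn1c (-2.66, SE 0.15), Osbpl5 (-2.57, SE 0.13) and Tnfrsf23 (-2.55, SE 0.14) stood lower in 2i than in serum, and Cd81 stood slightly higher (0.54, SE 0.08). Slc22a18 differed little (-0.47, SE 0.14), from -0.96 to -0.06 over 22 alternatives. The serum lines held the fibroblast RNA given above. MEFs read 38.6 and 11.1 RPKM of Cdkn1c, 36.5 and 39.3 of Osbpl5 and 16.8 and 20.8 of Tnfrsf23, but 0.320 and 0.351 of Phlda2. At the estimated shares, fibroblast RNA would give 47.4% to 79.3% of the serum RPKM of Osbpl5, 42.4% to 49.8% of that of Tnfrsf23, 12.5% to 24.4% of that of Cdkn1c and at most 0.0506% of that of Phlda2. With this part subtracted, the differences were -3.22 for Phlda2, -2.37 for Cdkn1c, -1.87 for Tnfrsf23, -1.31 for Osbpl5 and 0.89 for Cd81. The subtraction takes the MEF level of each gene as that of the fibroblasts in serum, which was not tested.

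**Figure D4:**
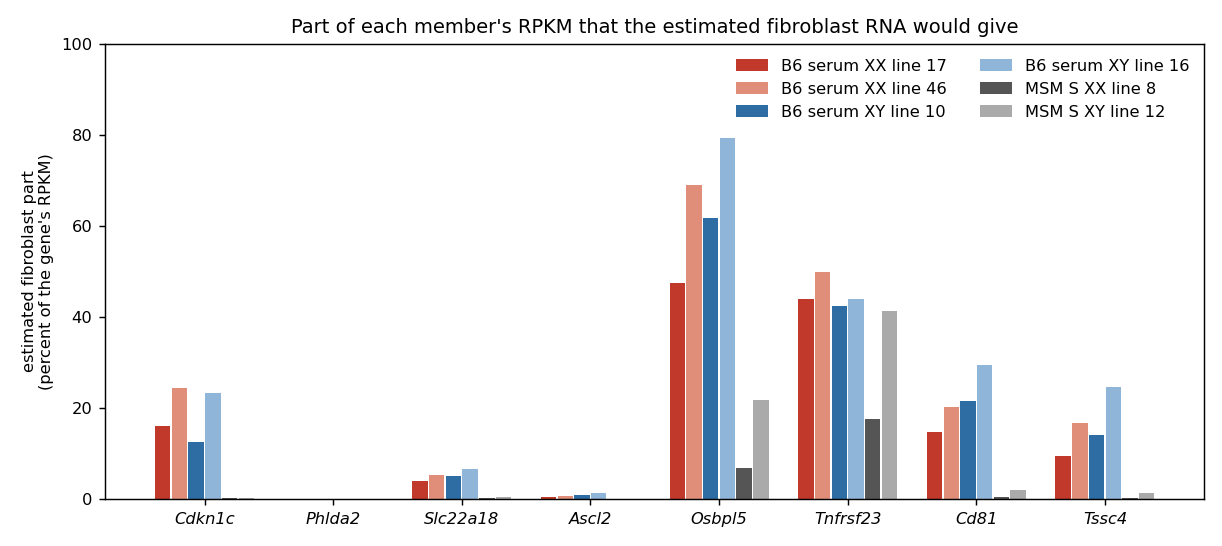
Percent of each member's RPKM (y axis) that the estimated fibroblast RNA would give in the 4 serum libraries of the B6 cross and the 2 S libraries of the MSM cross (colours) for the 8 members on the x axis. The part reaches 79.3% for Osbpl5 and stays at or below 0.0506% for Phlda2.

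Markers of other lineages also differed in serum. The 12 trophoblast markers summed to 98.2 to 210 RPKM in B6 serum and 54.3 to 103 in the other B6 lines, with Tpbpa and Prl3d1, which define mature trophoblast, at 0 in all 16 libraries. The 10 primitive endoderm markers summed to 152 to 385 RPKM in B6 serum against 12.1 to 31.3 elsewhere in that cross. The same markers summed to 864 and 875 RPKM in the MEFs, so their sum does not separate primitive endoderm from fibroblasts. In 2i, where the sexes differed, the trophoblast sum was 59.5 and 62.1 RPKM in XX lines and 67.9 and 73.1 in XY lines. The part of these cells in the members' levels was not tested. In bulk libraries fewer cells of a type and less RNA per cell cannot be told apart.

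The MSM cross joins 129X1/SvJ with a strain of Japanese wild origin. In 2i, Phlda2 read 1.93 and 1.75 RPKM in XX lines 15 and 2 and 28.6 and 27.2 in XY lines 20 and 23. Slc22a18 read 0.330 and 0.0623 RPKM (XX) and 4.58 and 1.95 (XY), and Cdkn1c 1.51 and 1.48 (XX) and 2.60 and 2.54 (XY). Ascl2 read 5.14 and 1.08 RPKM (XX) and 4.85 and 3.79 (XY). XX and XY lines did not overlap for the first 3 genes and overlapped for Ascl2. XY line 20, with the fibroblast marker sum given above, is 1 of the 2 XY lines here.

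With 1 XX term over the ESC lines in 2i and S, Phlda2 (-2.63, SE 0.39, limma adjusted p = 0.014) and Slc22a18 (-1.46, SE 0.29, adjusted p = 0.04) were lower in XX lines, and 3.44% of all 13443 genes tested were called. A fit added after seeing the data held all 10 MSM libraries by culture, and by sex among ESCs. Its spread came from the 2i lines and the MEFs, so the SE is not that of the 2i lines alone. There, XX minus XY in 2i was -3.35 for Phlda2 (SE 0.18, limma adjusted p = 0.0025) and -1.77 for Slc22a18 (SE 0.32, adjusted p = 0.04). Of all genes tested, 3.14% were called. Cdkn1c (-0.52, SE 0.50), for which the MEFs lay far apart (38.6 and 11.1 RPKM), and Ascl2 (-0.57, SE 0.47) did not pass. In the fit with 1 XX term both calls were lost without any 1 of the 4 lines in 2i, and Slc22a18 also without either MEF library. In the added fit Phlda2 was lost without MEF line 4 or XY line 20, and Slc22a18 without any 1 of the 4 lines in 2i or either MEF.

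Over the 8 lines of both crosses in 2i, also added after seeing the data, 4 of 7 tested members were lower in XX lines, with 22.5% of all 12339 genes called. The differences were -2.54 for Phlda2 (SE 0.14, limma adjusted p = 2.7e-05), -2.14 for Slc22a18 (SE 0.21, adjusted p = 0.00038), -1.003 for Cdkn1c (SE 0.15, adjusted p = 0.0025) and -1.07 for Ascl2 (SE 0.31, adjusted p = 0.038). Here too the p-value of Cdkn1c is not independent of the choice of genes, because its sex difference in 2i was already known. Within each cross, every XX line in 2i was below every XY line for Phlda2, Slc22a18 and Cdkn1c. The Ascl2 call was lost without any 1 of the 4 B6 lines, without MSM XY line 20 and without MSM XY line 23. No member was called for a sex difference that differed between the crosses (0.348% of all genes called, limma). Phlda2 came nearest (MSM minus B6 -1.62, SE 0.27, limma adjusted p = 0.056). An unadjusted p under 0.05 was found for 2 of 7 members, beside 1352 of all 12339 genes.

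Serum culture of the MSM cross had the highest Cdkn1c of the series, 49.2 RPKM in XX line 8 and 95.9 in XY line 12. Phlda2 read 77.8 and 178 RPKM in those lines. The 2i minus S difference was -4.55 for Cdkn1c (SE 0.41) and -3.71 for Phlda2 (SE 0.41), a ratio of S to 2i means of 32.9 (XX) and 37.3 (XY) for Cdkn1c and of 42.3 (XX) and 6.39 (XY) for Phlda2. At the fibroblast shares of these libraries, fibroblast RNA would give at most 0.291% of their Cdkn1c. Osbpl5 (1.19 and 1.97 RPKM in S) and Tnfrsf23 (0.230 and 0.511) compared with 0.315 to 1.32 and 0 to 0.202 in the 4 lines in 2i. The 2i minus S difference of Cd81 was 0.57 (SE 0.13).

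The 2i minus serum difference was set between the crosses as a description. It was larger in size in the MSM cross for Cdkn1c (MSM minus B6 -1.89, SE 0.32), and smaller for Osbpl5 (2.13, SE 0.24) and Tnfrsf23 (2.21, SE 0.26). Over all 13330 genes tested, 11.6% were called in this comparison. With fibroblast RNA subtracted, the Osbpl5 value became 0.999 (SE 0.32). The crosses also differ in their serum libraries' fibroblast share, which cannot be told apart from the cross for that reason.

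When line 15 was moved from 2i to serum, Cdkn1c went from 1.51 to 12.9 RPKM and Phlda2 from 1.93 to 21.1, both below the lines derived in serum (49.2 and 77.8 RPKM in XX line 8). Slc22a18 read 0.330 RPKM before and 0.468 after, below the 1.69 of XX line 8, and Ascl2 5.14 and 3.40. The 2i-S minus 2i difference was 2.55 for Cdkn1c (SE 0.56) and 2.60 for Phlda2 (SE 0.56). Over all genes, limma called 1.22%. The single 2i-S library was assumed to vary like the other groups, and its estimated fibroblast share was 1.23%.

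The fibroblasts divided the cluster. Osbpl5 (MEF minus 2i 4.13, SE 0.23), Tnfrsf23 (4.09, SE 0.20) and Cdkn1c (2.54, SE 0.45) stood higher in MEFs than in 2i ESCs, and Phlda2 (-4.08, SE 0.45) and Ascl2 (-2.13, SE 0.43) lower; 67.7% of all genes were called in this comparison. In MEFs derived from line 15, Osbpl5 read 31.4 RPKM (82.9% of the MEF mean) and Cd81 343 (83.7%). Cdkn1c read 1.16 RPKM there, 4.65% of the MEF mean of 24.9, and Slc22a18 0.157, or 10.0% of a MEF mean of 1.57. Tnfrsf23 read 8.64 RPKM (46.0%), and Phlda2 was listed at 0.

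The 2i MEF minus MEF difference was -3.34 for Cdkn1c (SE 0.57), -1.15 for Slc22a18 (SE 0.44) and -1.03 for Tnfrsf23 (SE 0.25). Over all genes, limma called 0.454%. The MEF libraries themselves lay far apart in Cdkn1c, and the lower of them, at 11.1 RPKM, was above the 2i MEF. The 2i MEF library held more fibroblast marker RNA than the MEFs (23692 against 12253 and 13418 RPKM). It is 1 library and had been passaged more.

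**Figure D5:**
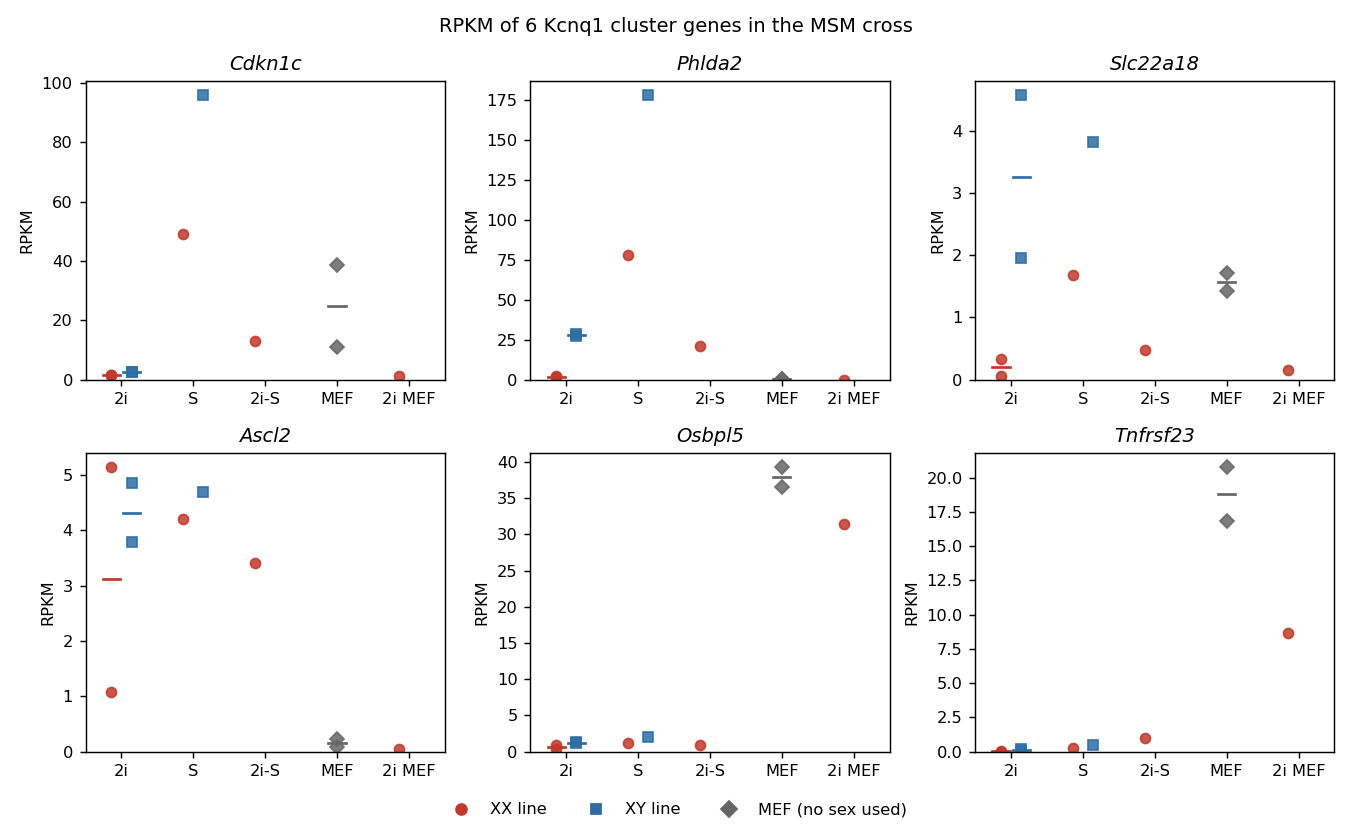
RPKM (y axis, linear, from 0, a separate scale per gene) of 6 cluster genes in the 10 MSM-cross libraries by culture (x axis); circles are XX, squares XY, diamonds MEFs without a sex, and short bars the mean where a group has 2 libraries. Cdkn1c reads 11.1 and 38.6 in MEFs and 1.16 in the 2i MEF, while Osbpl5 reads 31.4 there.

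Neighbours were taken as the other loci of this stretch of chromosome 7, from Syt8 on one side to Gm498 on the other, which held the listed genes of the domain. Of these, 10 passed the filter in the B6 cross. For the 3 sex by medium differences limma called 0 of them, beside 1.26% (t2i), 4.93% (a2i) and 8.17% (serum) of all genes. An unadjusted p under 0.05 was held by 3, 2 and 2 of the 10, beside 1923, 2843 and 3159 of all 13150 genes. At these shares, 0 of 10 says little about the neighbours. In 2i, Nadsyn1, an enzyme of NAD synthesis, was the 1 of 10 called between the sexes (XX minus XY -0.90, SE 0.23, limma adjusted p = 0.015), beside 25.1% of all genes, and the call was lost without XX line 3, XY line 2 or XY line 6. In t2i, beside 18.9% of all genes, 3 of 10 were called: the tetraspanin Tspan32 was higher in XX lines (1.46, SE 0.27, adjusted p = 0.0024), and the decoy receptor Tnfrsf22 (-0.66, SE 0.16, adjusted p = 0.014) and the cysteinyl-tRNA synthetase Cars (-0.49, SE 0.15, adjusted p = 0.04) were lower. The Tnfrsf22 call was lost without XX line 3, XY line 2 or XY line 6, and the Cars call in 7 of 22 alternatives, among them those without XX line 1, XY line 2 or XY line 6. The same 3 genes were called in a2i in these directions, at 1.11 (SE 0.27), -0.79 (SE 0.16) and -0.69 (SE 0.15), beside 28.3% of all genes; Tspan32 was lost without XX line 4 and Cars without XY line 3. In serum, beside 7.29% of all genes, Dhcr7, the last enzyme of cholesterol synthesis, was the 1 of 10 called (-0.87, SE 0.21, limma adjusted p = 0.026), and this was lost without XY line 10 or XX line 17.

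Between 2i and serum in the B6 cross, 2 of 10 neighbours were called higher and 3 lower in 2i, beside 47.6% of all genes. Lsp1, an actin-binding protein best known from leukocytes, fell by 3.28 (SE 0.16), and Tspan32 rose by 1.02 (SE 0.19). The growth factor gene Igf2, of the adjoining imprinted domain, differed by -5.18 (SE 0.38). MEFs read 792 and 309 RPKM of Igf2 and 94.6 and 31.6 of Lsp1. At the estimated shares fibroblast RNA would give 80.1% to 209% of the serum RPKM of Igf2 and 50.1% to 94.0% of that of Lsp1. In XY lines 10 and 16 and XX line 17 the Igf2 part (102%, 189% and 209%) exceeded the measured level. The share and the MEF mean together thus give more Igf2 than was measured there, and negative remainders were cut off at the floor. Whether the share or the MEF level is too high was not tested. With the estimated part subtracted, the Igf2 difference was -0.57 (SE 0.67, limma adjusted p = 0.51) and was no longer called, which that cut partly forces. The Lsp1 difference was -1.69 (SE 0.36). Between 2i and S, 3 of 13 neighbours were called, beside 17% of all genes: Igf2 (-2.63), Lsp1 (-1.51, lost in 9 of 15 alternatives) and Tspan32 (1.26, lost in 7 of 15). Subtraction, or leaving out any 1 of the 6 lines in 2i and S, was among the alternatives that lost Lsp1; leaving out either MEF, XX line 15 or any XY line lost Tspan32.

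In the single 2i MEF library Igf2 read 14.4 RPKM, below both MEF libraries, and the 2i MEF minus MEF difference was -5.01 (SE 0.51). Tnfrsf22 was the 1 of 10 neighbours called between t2i and 2i in the B6 cross (0.63, SE 0.12, limma adjusted p = 0.0062), beside 8.08% of all genes, and 3 of 10 were called between a2i and 2i, beside 13.8%.

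A list of 22 factors of imprint maintenance and silencing held Polycomb and histone methyltransferase subunits, DNA methyltransferases and their partners. In XX against XY lines in 2i, 3 of 22 were called higher and 3 lower, beside 25.1% of all genes. Dppa3, which guards maternal methylation in the zygote, was higher (1.57, SE 0.30, limma adjusted p = 0.0021), as was the methyltransferase cofactor Dnmt3l (1.18, SE 0.19, adjusted p = 0.00079). The Polycomb genes Ring1 (-0.88, SE 0.20, limma adjusted p = 0.0076) and Ezh1 (-0.74, SE 0.14, adjusted p = 0.002) were lower. Ring1 was lost without XX line 4 or XY line 6. The Polycomb genes Suz12 and Cbx7 were also called, in opposite directions, so Polycomb genes were called both ways. Suz12 was lost in 4 of 22 alternatives.

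Of the sex by medium differences, 1 of 22 factors was called for t2i minus 2i, beside 1.26% of all genes: Dppa3 (-1.92, SE 0.42, limma adjusted p = 0.048), lost in 16 of 22 alternatives. For a2i minus 2i, beside 4.93% of all genes, 3 were called: Dppa3 (-2.48, SE 0.42, adjusted p = 0.0092), which held throughout, Ezh1 (0.86, SE 0.20, adjusted p = 0.03), lost in 8 of 22, and the Polycomb reader Cbx7 (0.62, SE 0.16, adjusted p = 0.046), lost in 19 of 22. Most of these losses came from leaving out 1 line.

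Averaged over the sexes, Dnmt3l was higher in t2i (0.87, SE 0.14) and a2i (0.91, SE 0.14) than in 2i. The DNA methyltransferase gene Dnmt3a was higher in a2i (1.11, SE 0.19, limma adjusted p = 0.0022), and its difference in t2i (0.67, SE 0.19, adjusted p = 0.048) passed with all lines but was lost in 17 of 22 alternatives. They are among 2 of 22 factors called in t2i, beside 8.08% of all genes, and 3 of 22 in a2i, beside 13.8%. Between 2i and serum, 4 of 22 factors were called higher and 12 lower in 2i, led by Dnmt3a (-2.27, SE 0.19), Dnmt3l (-1.56, SE 0.14) and Dnmt3b (-1.34, SE 0.23); 47.6% of all genes were called in this comparison.

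Over the 16 B6 libraries on the log2 scale, Cdkn1c and Phlda2 were the closest pair of the 4 members that differed by sex in 2i (Pearson r = 0.92), Slc22a18 and Ascl2 followed at 0.68, and Cdkn1c and Ascl2 had r = 0.06. Osbpl5 and Tnfrsf23 had r = 0.95. Among 13150 genes, those most like Cdkn1c were Utf1, a pluripotency-associated chromatin factor (r = 0.95), Nfatc4 (0.94) and Brsk1 (0.93). Those most like Phlda2 were Gorasp1, Mapkapk3 and Aplp1 (0.95, 0.95 and 0.94), and those most like Ascl2 were Soat2, Wash1 and Mia (0.83, 0.82 and 0.82). Utf1 read 66.1 and 78.1 RPKM in XX lines in 2i, 107 and 137 in XY lines and 274 to 369 in serum. The points share libraries, media and sexes, and these values describe the 16 libraries only.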

How the data were processed

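The values are gene-level RPKM in 1 table deposited by the authors. Strand was kept in library preparation, per the labels' protocols. The build was mm10, and the tools named were Cufflinks 2.2.1, Bowtie2 2.2.5, TopHat2 2.1.0 and cutadapt 1.9.1, per the submitters' processing notes. Which tool made the RPKM values, the strand setting and the annotation release are not given in the sources used here. Relative depth, read from the spacing of low values, ran from 0.771 to 1.83 times the depth of XX line 3 in 2i (B6 cross; approximate: the modal step held 9.58% to 17.2% of low genes).

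Values were taken as log2(RPKM + 1) without further scaling, and a fit kept the loci that reached 1 RPKM in 2 or more of its libraries. Linear models (limma 3.58.1, R 4.3.3; eBayes with a trend) were fitted over all genes, with Benjamini-Hochberg adjustment and calls under 0.05. The B6 fit held 8 medium by sex groups (8 residual degrees of freedom). The MSM fit held culture groups and an XX term for ESCs (4 residual degrees of freedom). The fit of both crosses' 2i lines held 4 groups, and that of 2i against serum between the crosses a sex term in each. The fibroblast share is the median over 16 markers of a library's level, less the 2i mean of its cross, over the MEF mean. Scripts were tested on simulated data. Tables were made with Python 3.11.15, pandas 2.3.3 and numpy 2.4.6.

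The members and gene lists were chosen with earlier results of these data known. All 9 members are named; neighbours and factors are named where called, up to 4 each, and the 3 genes most like Cdkn1c, Phlda2 and Ascl2 by Pearson r. H19 and Kcnq1ot1 were not analysed here. Alternatives were a pseudocount of 0.1, no filter, quantile normalization, fits of the compared groups only, leaving out each line, subtracting fibroblast RNA and a replicate block.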

Additional observations from a re-analysis of the deposited data

Results flagged for a closer look

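In 35 sets of 4 libraries sharing a cross and medium in which a member reached 1 RPKM, chance alone marks about 1 in 20 as holding a library far from the others. Cd81 in B6 serum XX line 46 was such a value, at 295 RPKM against 224 to 234 in the other 3 serum lines.

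Several effects differed between groups by a direct test (limma, adjusted p under 0.05). In the B6 cross, comparing the sexes, the t2i minus 2i difference was larger in XX lines by 2.03 for Ascl2, 2.01 for Cdkn1c and 1.39 for Slc22a18, and the a2i minus 2i difference by 1.80 for Slc22a18, 1.58 for Cdkn1c and 1.33 for Ascl2. The 2i minus serum difference in XX lines less that in XY lines was -2.501 for Slc22a18 and -2.19 for Ascl2. These comparisons share the 4 lines in 2i, where the sex difference of Cdkn1c was known when the genes were chosen.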

How the results depend on the processing

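No member's called sex difference changed sign under any alternative, and the 4 members called between XX and XY lines in 2i of the B6 cross were called throughout. The number of members called was also taken with 1 line left out at a time. For XX minus XY it ran from 0 to 2 in a2i (2 with all lines) and from 0 to 1 in serum (1). For the sex difference of t2i minus 2i it ran from 1 to 4 (3), and for that of a2i minus 2i from 1 to 4 (3). For XX minus XY in the MSM cross it ran from 0 to 2, among ESCs and within 2i (2 in both). With a pseudocount of 0.1 the count was 1 in a2i, 1 for XX minus XY among MSM ESCs and 1 for the sex difference in 2i that differed between crosses (0). Without a filter it was 1 in a2i, 0 among MSM ESCs and 1 within 2i of the MSM cross. Quantile normalization gave 2 in t2i (1) and 1 for the difference between crosses. With fibroblast RNA subtracted it was 1 in a2i, and at the mean share also 2 in serum. Fits of the compared groups alone gave 0 in a2i, 0 in serum and 1 for the sex difference of a2i minus 2i. The cause of these changes was not tested.

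Among all genes, the sex difference of t2i minus 2i was called for 166, for 46 to 221 with 1 line left out and for 87 with fibroblast RNA subtracted; that of a2i minus 2i for 648, 161 to 683 and 418, and for 230 in a fit of the groups compared alone. XX minus XY in a2i (3726) and serum (958) gave 2424 and 340 in such fits. Leaving out 1 library took the count for 2i-S minus 2i from 164 to between 0 and 261, for 2i MEF minus MEF from 61 to between 2 and 109, for XX minus XY among MSM ESCs from 462 to between 110 and 479, within MSM 2i from 422 to between 0 and 441, and for 2i minus S from 2290 to between 662 and 2321. Subtracting fibroblast RNA left 739 of 1544 genes called between the crosses and 91 of 164 for 2i-S minus 2i. Without a filter, 165 genes were called among MSM ESCs, 179 within MSM 2i, 113 for 2i MEF minus MEF (17 with a pseudocount of 0.1) and 12 of 43 for the difference between crosses. For Igf2, subtraction turned the difference between crosses to -1.86, or -1.30 at the mean share, and at the mean share it turned 2i-S minus 2i to -0.039. The subtracted part of Igf2 exceeded its level in some B6 serum lines, as given above.

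XY lines 2 and 6 carry the same numbers in 2i and t2i. The number of XX line 3 also occurs in 2i and t2i, and that of XX line 4 in 2i and a2i. No block was fitted for these XX lines, and the B6 fit took all lines as separate. For the XY lines, t2i minus 2i was also fitted with a replicate block. The same 4 libraries without the block were an alternative chosen after seeing the data. This is a difference between media, on which the members were selected, so no call of a member is given. Deviations of the same-numbered XY lines had r = 0.00186 over 11525 genes (2 pairs). With 2 lines in a medium the deviations of lines 2 and 6 mirror each other, so this value cannot decide whether same-numbered lines are related.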
